A study of Mus musculus with 67 samples.

Results

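The 45 genes described here are those of the deposited expression table, of 26414 in all, whose symbol begins with Ube2, Ube3 or Ube4, leaving out 2 pseudogenes marked -ps. They comprise 37 Ube2, 3 Ube3 and 2 Ube4 genes and 3 antisense genes that lie at Ube4b. RNA of 67 libraries, made with SMART-seq2 from single cells of dissociated C57BL/6 embryos, was sequenced at 5 stages. The embryos came from in vitro fertilization with oocytes of 6-week-old females and sperm of 10-week-old males. Light embryos received 6 h of illumination at 5000 lx as 2-cell embryos and then developed in darkness, whereas control embryos were kept in the dark (0 lx) throughout. There were 33 control and 34 light libraries. By stage, 2-cell embryos gave 7 control and 6 light libraries, 4-cell embryos 6 and 8, 8-cell embryos 4 and 8, morulae 13 and 6 and blastocysts 3 and 6. The labels number embryos within each group and give no dish or litter, so p-values measure the spread between these libraries, and cells of 1 embryo could be among them.

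Ubiquitin is a small protein that is attached to other proteins, often as a signal for their breakdown by the proteasome. An E1 enzyme activates it, an E2 (ubiquitin-conjugating) enzyme carries it, and an E3 ligase chooses the protein that receives it. Most of the Ube2 genes encode E2 enzymes or relatives of them, whereas Ube2cbp encodes a ligase that binds the E2 Ube2c and Ube2nl is annotated as a processed pseudogene. The genes Ube3a, Ube3b and Ube3c encode E3 ligases of the HECT class, and Ube4a and Ube4b encode ligases with a U-box, which are not HECT enzymes. In the early embryo, ubiquitin-driven breakdown removes proteins that the oocyte had stored while the embryo's own genes are switched on.

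The deposited values are reads divided by a size factor of each library, with no division by transcript length. Total reads were 836011 to 8551674 per library, of which 54.0% to 89.3% lay on the rRNA-type genes CT010467.1 and Gm42418, and 1321 to 18291 reads fell on the 45 genes. A count of 3 reads corresponded to a value of 0.797 to 11.7, so low members are poorly resolved, and intervals from read counts would cover counting error only, since amplified reads carry no molecular identifiers. The ratio of Gm42418 to CT010467.1 separated the groups at 3 stages, namely in 2-cell embryos (control 2.34 to 4.03, light 1.58 to 1.77), 8-cell embryos (control 2.01 to 2.34, light 1.52 to 1.71) and morulae (control 2.34 to 4.14, light 1.49 to 1.67). Light and whatever sets this ratio cannot be told apart there. Control 4-cell library 3 had a median correlation of 0.788 with its own group and 0.844 with the light group, and 16 libraries in all, each of them control, were nearer the other group of their stage (4 of 6 at the 4-cell stage, 11 of 13 morulae and 1 of 3 blastocysts). The shallowest libraries were light 2-cell 16 with 836011 reads and light 4-cell 14 with 952397, and results that change without a library are given without it as well. All 7 oocyte markers were detected in 2-cell embryos, and the summed trophectoderm markers reached at least 455 in every blastocyst library against at most 339 before the morula.

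Of the 45 members, 16 had a value above 1 in all 67 libraries, among them Ube2b, Ube2c, Ube2d3, Ube2k, Ube2n, Ube3c and Ube4b. At the other end, the group means of 4 members (Ube2dnl1, Ube2nl, Ube2ql1 and Ube4bos2) stayed under 3 everywhere. A gene was tested where 3 or more of the fitted libraries had a value over 1. Between light and control embryos 34 members met this at all 5 stages, and Ube2ql1 and Ube4bos2 at none. The summed value of the 45 genes was 8228 ± 1356 (SD, n = 7) in control and 6791 ± 865 (SD, n = 6) in light 2-cell libraries. In 4-cell embryos it was 3537 ± 791 (control, SD, n = 6) and 3682 ± 719 (light, SD, n = 8), and it ended at 2014 ± 379.7 (SD, n = 3) and 1440 ± 459 (SD, n = 6) in blastocysts. As a share of the reads outside the rRNA-type genes, the members held 0.621% in control and 0.538% in light 2-cell libraries, and between 0.301% and 0.375% in all later groups. In blastocysts this share was 0.309% (0.291% to 0.324%) in control and 0.366% (0.318% to 0.439%) in light libraries, so that the light mean was the higher one by share and the lower one by summed value, with overlap of the groups in both. The mean was highest at the 2-cell stage in both groups for 20 members, at the 4-cell stage in both for 4 (Ube2b, Ube2c, Ube2e3 and Ube2l3) and in blastocysts in both for 4 (Ube2d1, Ube2f, Ube2m and Ube3b).

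**Figure D1:**
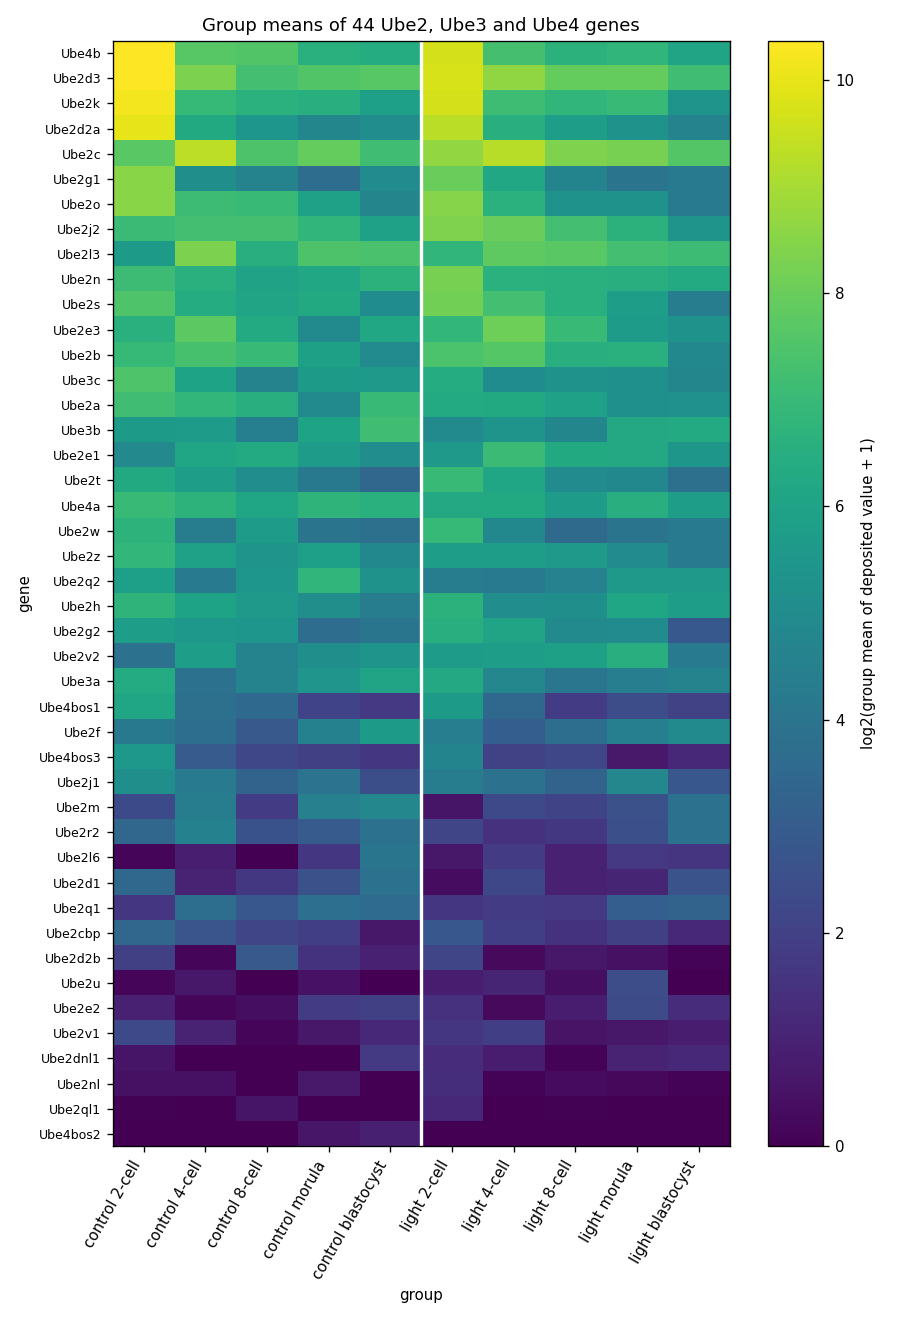
Heat map of 44 of the 45 genes (one line each, ordered by their highest group mean) in the 10 groups, control to the left and light to the right of the white line. Colour gives log2 of the group mean of the deposited value plus 1. Ube4b, Ube2d3, Ube2k and Ube2d2a are brightest at the 2-cell stage in both groups and darker from the 4-cell stage on, whereas Ube2c and Ube2l3 are brightest at the 4-cell stage.

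Compared per kilobase of exon (GENCODE M21), Ube4b led the control 2-cell embryos with a group mean of 186 per kb, ahead of Ube2k with 146 and Ube2d2a with 87.5. The length is that of all annotated exons of a gene joined, so it is at least that of any single transcript. For Ube2d3 it is 24499 bases and for Ube4b 7078, with means before division of 1300 and 1319 in these embryos. The order of members per kb therefore depends on this length. Ube2k builds the type of ubiquitin chain that marks proteins for the proteasome, and Ube2d2a belongs to the Ube2d enzymes, which serve many E3 ligases. In the light 2-cell embryos Ube2c had the highest mean, 159 per kb, followed by Ube4b with 116 and Ube2k with 104. From the 4-cell stage to the morula Ube2c, the E2 of the anaphase-promoting complex that ends mitosis, was the highest member per kb in every group, with 245 in control and 236 in light 4-cell embryos. In control blastocysts Ube2a and Ube2c had 57.6 and 56.5 per kb.

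Promoters are shown for 4 members that the description below turns on, Ube4b and Ube2k with their highest means in 2-cell embryos and Ube2c and Ube2l3 with their highest means in 4-cell embryos. The sequences are RefSeq promoters of GRCm38.p6, from 250 bases before to 50 after the annotated start, given 5′ to 3′ on the gene's strand, and 35 of the 45 members had an entry. They lie at chr2:164769679-164769978 on the plus strand for Ube2c, chr16:17201443-17201742 on the minus strand for Ube2l3, chr4:149426582-149426881 on the minus strand for Ube4b and chr5:65536995-65537294 on the plus strand for Ube2k. Capitals mark matches, on either strand, to the letters of a CCAAT box, of the cell cycle elements TTTGAA and TTTAAA, of a GC box (GGGCGG), of a TATA box (TATAAA) and of an E-box (CACGTG).
Ube2c: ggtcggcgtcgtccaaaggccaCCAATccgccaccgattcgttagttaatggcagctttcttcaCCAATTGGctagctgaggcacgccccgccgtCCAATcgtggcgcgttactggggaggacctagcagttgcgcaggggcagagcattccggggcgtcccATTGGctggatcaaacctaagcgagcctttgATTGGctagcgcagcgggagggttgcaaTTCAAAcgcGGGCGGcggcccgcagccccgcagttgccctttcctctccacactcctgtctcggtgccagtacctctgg
Ube2l3: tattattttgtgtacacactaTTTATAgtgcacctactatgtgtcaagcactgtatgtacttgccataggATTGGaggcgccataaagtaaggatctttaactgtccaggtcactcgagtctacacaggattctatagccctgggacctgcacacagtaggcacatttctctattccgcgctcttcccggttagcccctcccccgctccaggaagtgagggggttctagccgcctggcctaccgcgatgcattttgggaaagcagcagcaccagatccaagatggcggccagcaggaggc
Ube4b: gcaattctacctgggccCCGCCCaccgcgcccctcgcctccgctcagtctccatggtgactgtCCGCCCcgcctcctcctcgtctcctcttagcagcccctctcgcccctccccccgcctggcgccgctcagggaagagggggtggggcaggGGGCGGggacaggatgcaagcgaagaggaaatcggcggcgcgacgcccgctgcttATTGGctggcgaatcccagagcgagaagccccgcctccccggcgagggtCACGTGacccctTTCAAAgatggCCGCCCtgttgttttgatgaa
Ube2k: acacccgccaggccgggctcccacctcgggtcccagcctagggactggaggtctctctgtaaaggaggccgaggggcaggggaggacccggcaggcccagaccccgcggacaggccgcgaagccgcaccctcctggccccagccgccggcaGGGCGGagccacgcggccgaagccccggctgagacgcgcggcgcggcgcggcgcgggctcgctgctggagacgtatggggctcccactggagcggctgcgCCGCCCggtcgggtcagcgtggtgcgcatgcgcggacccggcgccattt
The Ube2c window held CCAAT 6 times, at -228, -186 and -155 on the gene's strand and at -183, -88 and -57 on the other strand, of which the matches at -186 and -183 overlap. TTTGAA was found on the other strand at -29 and GGGCGG on the gene's strand at -20, counting from the annotated start. CCAAT was present in 21.7% of the 46 member promoters and in 37.4% of all 32544 promoters of this length, TTTGAA in 13.0% and 17.8%, TTTAAA in 4.35% and 13.1%, TATAAA in 6.52% and 13.6%, and CACGTG in 8.70% and 7.17%. GGGCGG stood in 73.9% of member promoters and 35.9% of all, and the median number of CpG dinucleotides was 29 and 7. These matches describe letters only.

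Of the 8 changes between neighbouring stages, that from the 2-cell to the 4-cell stage held the most calls in each group. In control embryos 19 of 42 members tested were called, which means a Benjamini-Hochberg adjusted p under 0.05 in limma and a fold change of at least 2. Of these, 14 fell and 5 rose, against 42.7% of all genes tested called (30.4% lower and 12.3% higher), so the share of members called was near that of all genes. In light embryos 18 of 43 members were called, 15 lower and 3 higher, against 35.5% of all genes (28.2% lower and 7.28% higher). The median change of the members was -0.87 in control and -0.59 in light embryos on the log2 scale, beside -0.49 and -0.44 for all genes tested. The control split was 16 lower and 2 higher with the median ratio scaling (all genes 6495 and 1891). EdgeR gave 8 lower and 6 higher in light embryos (all genes 3183 and 2248). Both comparisons use different libraries, and 12 members were called in both in the same direction, which is 63.2% of the control and 66.7% of the light list. The same overlap was not counted over all genes, so these shares do not set the members apart from other genes.

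Ube4b, a U-box ligase that lengthens ubiquitin chains, fell in both groups. Its lowest, median and highest values were 895, 1311 and 1743 in control 2-cell embryos and 81.3, 171 and 383 in control 4-cell embryos. In light embryos they were 610.0, 687 and 1282 and then 108, 175 and 191. Every 2-cell library lay above every 4-cell library of its group, with a fall by 2.89 on the log2 scale (SE 0.35, adjusted p = 8.08e-09, limma) in control and by 2.36 (SE 0.26, adjusted p = 8.13e-10) in light embryos. The antisense genes Ube4bos1 and Ube4bos3 fell as well, with log2 changes of -3.27 and -2.61 in control and of -2.27 and -2.97 in light embryos, but SMART-seq2 keeps no strand, so their reads and those of Ube4b cannot be told apart. The antisense calls were lost in edgeR. The other U-box gene, Ube4a, had means of 126 and 104 in control 2-cell and 4-cell embryos (adjusted p = 0.742, limma).

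Among the general E2 enzymes, Ube2d2a had lowest, median and highest values of 828, 993 and 1438 in control 2-cell and 36.2, 66.5 and 147 in control 4-cell embryos. It fell by 3.81 on the log2 scale in control (adjusted p = 1.71e-08, limma) and by 2.84 in light embryos (adjusted p = 5.31e-09), again without overlap of the stages. Its near-identical copy Ube2d2b was listed at a mean of 2.89 in control 2-cell embryos, and reads of such copies may be split between them. Ube2d3, of the same family, went from a mean of 1299.8 to 319 in control and from 854 to 398 in light embryos. It fell by 2.21 (adjusted p = 1.5e-05, limma) and by 1.10 (adjusted p = 0.00102) on the log2 scale. The light call on Ube2d3 was lost with the median ratio scaling, in edgeR and without light 2-cell 14. Ube2d1 was near the limit of detection, with medians of 3.17 and 0 in control 2-cell and 4-cell embryos.

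Ube2k fell from a median of 1228 to 124 in control and from 779 to 136 in light embryos, by 3.37 (adjusted p = 1.11e-08, limma) and 2.53 (adjusted p = 6.5e-08) on the log2 scale. Ube2g1, another E2 that builds proteasome-type chains, gave the largest fall in control embryos, by 4.36 (SE 0.88, adjusted p = 8.89e-05, limma). Its control values were 248, 355 and 505 at the 2-cell stage (lowest, median and highest) and 0.655, 24.8 and 113 at the 4-cell stage. In light embryos it went from 149.9, 233 and 377 to 35.3, 74.5 and 106 and fell by 1.79 (adjusted p = 0.000395). Ube2w, which attaches ubiquitin to the amino end of proteins, fell by 2.48 in control (adjusted p = 0.000157, limma) and by 2.59 in light embryos (adjusted p = 0.00114).

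Of the HECT ligases, Ube3a, the gene of Angelman syndrome, fell from a mean of 81.8 to 13.9 in control embryos, by 2.55 on the log2 scale (adjusted p = 0.00207, limma), and from 76.3 to 26.9 in light embryos, by 1.94 (adjusted p = 0.0383). The light call on Ube3a was lost under all 4 other settings (a pseudocount of 0.1, no filter, the median ratio scaling and edgeR) and without 7 of the 14 libraries in turn. Ube3c, which extends chains on proteins held at the proteasome, fell by 1.53 in control (adjusted p = 0.0157, limma) and by 1.64 in light embryos (adjusted p = 0.00109). Ube3b had means of 49.8 and 50.4 in control 2-cell and 4-cell embryos and was called in neither group.

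Ube2l3, an E2 that works with HECT and RBR ligases, was the 1 member that rose in both groups. In control embryos its lowest, median and highest values were 6.25, 23.9 and 116 at the 2-cell and 195, 306 and 471 at the 4-cell stage, with no overlap, and in light embryos they were 31.7, 113 and 211 and 167, 219 and 291, with overlap. It rose by 3.26 (SE 0.50, adjusted p = 1.12e-06, limma) in control and by 1.22 (SE 0.31, adjusted p = 0.00163) in light embryos, where the call was lost without light 2-cell 15. Ube2c went from a median of 249 to 562 in control embryos, a rise by 1.37 (adjusted p = 0.00773, limma) that was not called with the median ratio scaling. In light embryos the Ube2c medians were 389 and 601, a log2 change of 0.52 with adjusted p = 0.111. Ube2s, the E2 that extends the chains begun by Ube2c on the same complex, went the other way and fell by 1.14 in control (adjusted p = 0.0128, limma) and 1.02 in light embryos (adjusted p = 0.0372), and both calls were lost in edgeR.

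Among those called in control embryos alone were Ube2c, Ube2m, Ube2q1, Ube2q2, Ube2v1 and Ube2v2, and in light embryos alone Ube2d2b, Ube2e1, Ube2e3, Ube2h, Ube2n and Ube2o. Ube2m, a NEDD8-conjugating E2, rose in control embryos by 2.24 (adjusted p = 0.0315, limma), and this was lost under 3 of the 4 other settings and without 7 of the 13 libraries in turn. Ube2q1 rose by 2.40 (adjusted p = 0.0179), lost with the median ratio scaling. Ube2n, which makes chains that signal rather than degrade, fell in light embryos by 1.60 (adjusted p = 1.23e-05, limma), and its control log2 change was -0.62 (adjusted p = 0.204). Ube2e1 and Ube2e3 rose in light embryos by 1.59 (adjusted p = 0.000495, limma) and 1.65 (adjusted p = 0.0036), beside 1.62 and 1.32 in control embryos, not called.

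A call in 1 group alone does not show that the groups differ, which an interaction term tests. Of 43 members, 0 were called for a different change between light and control embryos in limma, against 3.07% of all genes, and 9 had an unadjusted p under 0.05. Ube2g1 came nearest, with a log2 difference of 2.57 (SE 0.76, adjusted p = 0.0501), followed by Ube2l3 with -2.04 (adjusted p = 0.0946) and Ube2d1 with 2.87 (adjusted p = 0.114). With the median ratio scaling 2 members were called, among them Ube2g1, beside 942 of all genes. In edgeR 1 was called (Ube2d1), beside 1097 of all genes. Ube2d1 was near the limit of detection, with at most 1 read in any light 2-cell library. When any 1 of 9 of the 27 libraries was left out, 1 was called (Ube2g1 or Ube2l3).

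**Figure D2:**
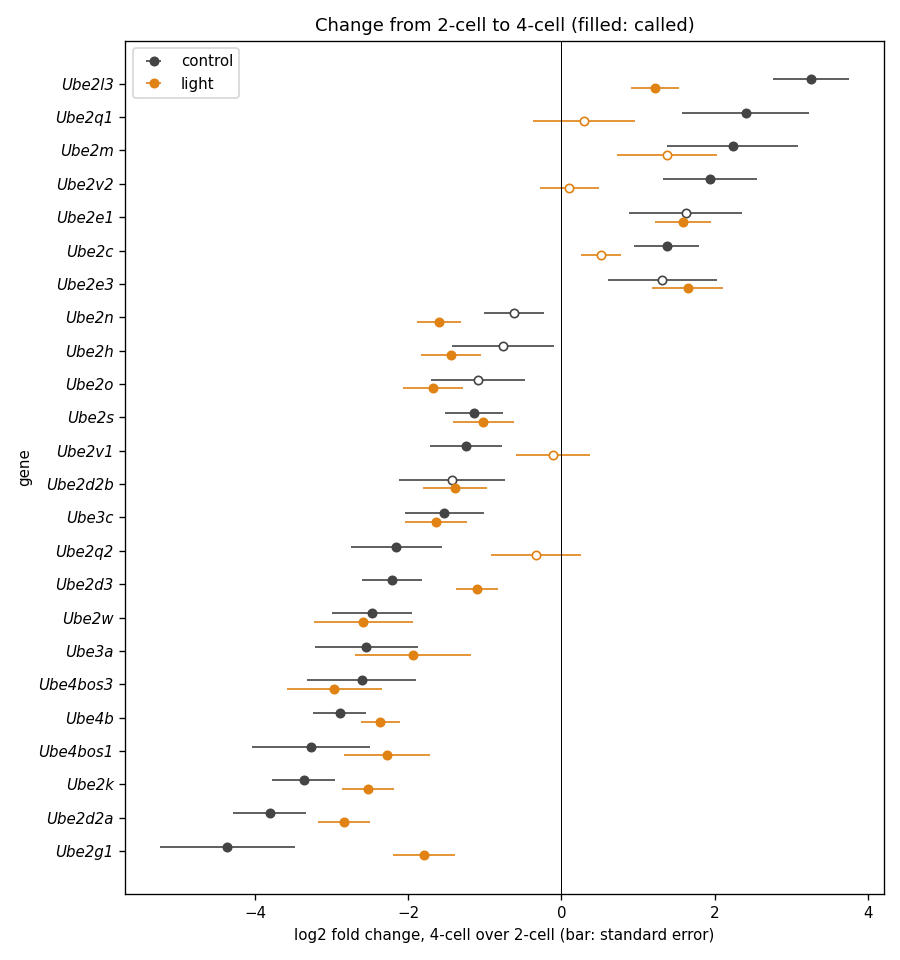
Log2 fold change from the 2-cell to the 4-cell stage (horizontal axis) for the members drawn in the heat map that were called in control (grey) or light (orange) embryos, with standard errors and filled points where called. Ube2l3 is called higher in both groups, and Ube4b, Ube2k, Ube2d2a and Ube2g1 are called lower in both, with the Ube2g1 points at -4.36 in control and -1.79 in light embryos.

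**Figure D3:**
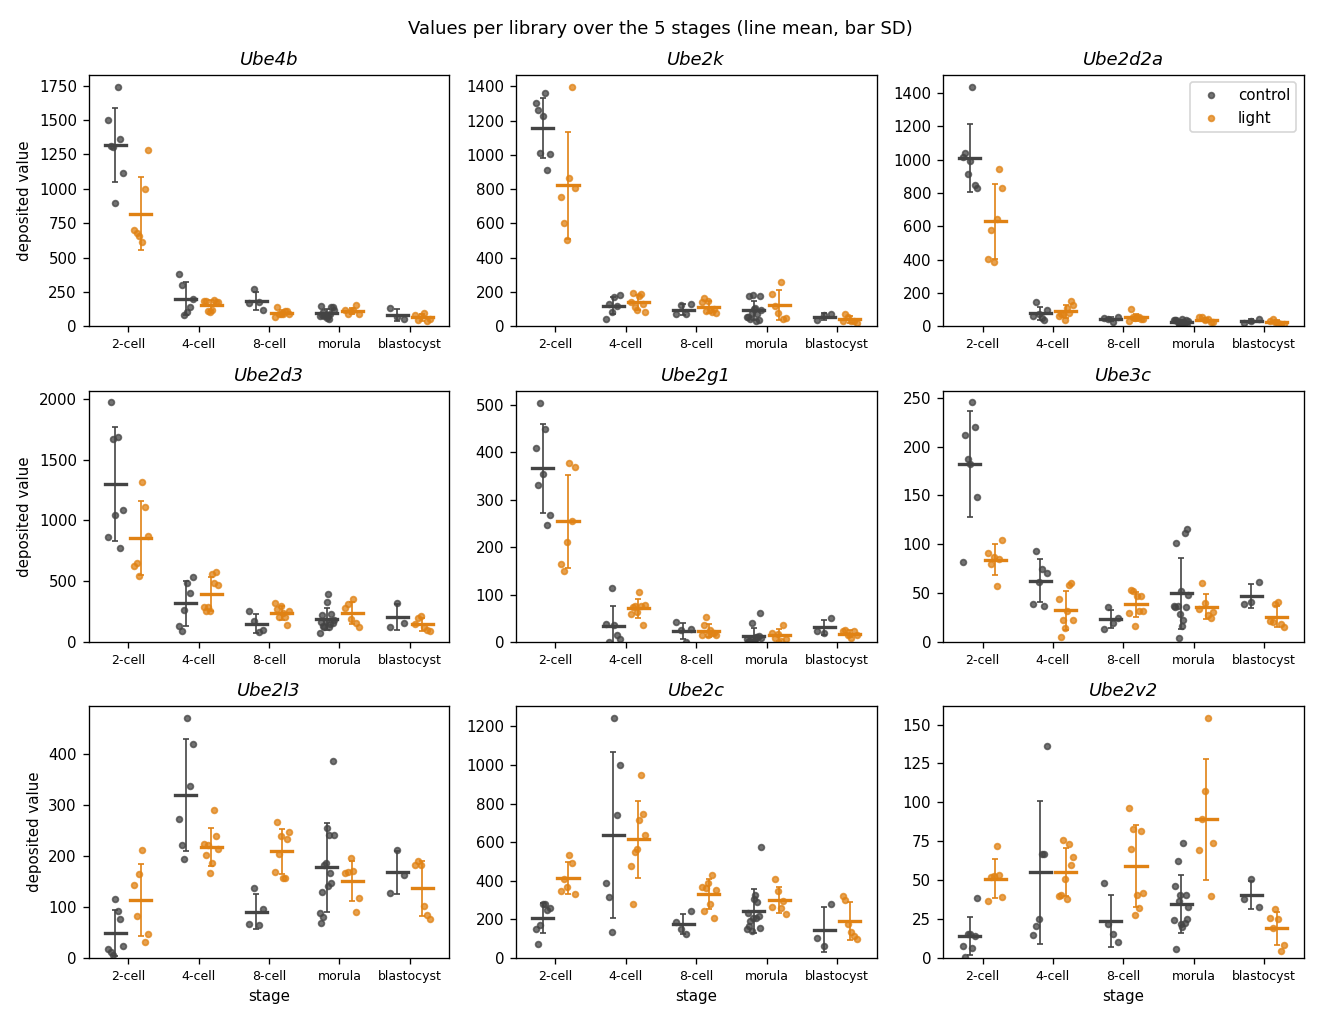
Deposited values of 9 members per library (points) over the 5 stages, in control (grey) and light (orange) embryos, with the mean as a line and the SD as a bar. The 6 genes in the upper panels and the middle row have their highest mean at the 2-cell stage in both groups and lower means from the 4-cell stage on, whereas in the bottom row Ube2l3 and Ube2c have their highest means at the 4-cell stage and Ube2v2 its lowest control mean at the 2-cell stage.

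Later changes were fewer. From the 4-cell to the 8-cell stage 0 of 42 members were called in control embryos in limma (all genes 3.71%). Of these members 9 had an unadjusted p under 0.05, and edgeR called 0. Leaving out control 4-cell 1, 2 or 3 in turn gave 1 call, which was lower without control 3 (all genes 258 higher and 737 lower). The median ratio scaling also gave 1 call, but as higher (all genes 391 higher and 127 lower). In light embryos 4 of 43 fell (all genes 6.82%, and 6.4% lower): Ube4bos1 by 1.80, Ube2g1 by 1.58, Ube2o by 1.45 and Ube2b by 1.04 on the log2 scale. With the median ratio scaling and in edgeR this count was 0, and 154 and 174 of all genes were called lower. The median log2 change of all genes tested was -0.29 as deposited and -0.01 with the median ratio scaling.

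From the 8-cell stage to the morula 4 of 42 members were called in control embryos, 2 higher and 2 lower (all genes 11.4%, with 5.07% higher and 6.37% lower). In light embryos 2 of 43 were called, 1 in each direction (all genes 9.27%, with 3.69% higher and 5.58% lower). Under the median ratio scaling 8 were called in control (2 higher and 6 lower) and 7 in light embryos (6 higher and 1 lower). Over all genes this scaling gave 1162 higher and 1722 lower in control and 1101 higher and 936 lower in light embryos. Ube3b, the HECT ligase, rose in both, by 1.83 (adjusted p = 0.0388, limma) in control and 2.04 (adjusted p = 0.0286) in light embryos. Its means went from 20.9 to 63.5 and from 26.1 to 74.5. In control embryos Ube2m rose by 2.94 (adjusted p = 0.0222, limma), from a mean of 2.55 to 21.7, whereas Ube2w and Ube2b, 1 of the 2 RAD6 enzymes that ubiquitinate histone H2B and PCNA, fell by 1.61 (adjusted p = 0.0419) and 1.30 (adjusted p = 0.0453). In light embryos Ube2e3 fell by 1.52 (adjusted p = 0.0254, limma). Each of these calls was lost when any 1 of 3 or more of the libraries was left out. The control calls on Ube3b, Ube2m and Ube2b were lost in edgeR, and those on Ube2w and Ube2b with a pseudocount of 0.1. The light call on Ube3b was lost with a pseudocount of 0.1 and with no filter.

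From the morula to the blastocyst, Ube2a, the other RAD6 enzyme, rose in control embryos by 2.67 (SE 0.81, adjusted p = 0.0253, limma), the 1 call among 42 members (all genes 10.2%, and 5.99% higher). With the median ratio scaling, which moved the median of all genes from 0.10 to 0.34, 4 members were higher. The number of all genes called higher went from 1225 to 2428. The 13 morulae had values of 0, 36.7 and 65.3 (lowest, median and highest), all below the 3 blastocyst libraries with 157, 145 and 90.5, and the call was lost when any 1 of these 3 was left out. In light embryos Ube2a had means of 35.9 and 36.5 (adjusted p = 1, limma). There 9 of 43 members fell (all genes 14.5%, and 11.2% lower), with Ube2v2 by 2.31 (adjusted p = 3.82e-05), Ube2g2 and Ube2j1, which serve ER-associated degradation, by 1.90 and 1.90, and Ube2b by 1.87 (adjusted p = 0.00015). There were 4 members higher and 3 lower with the median ratio scaling (all genes 1769 and 864), and edgeR left 3 lower (all genes 920 higher and 1024 lower). Ube2b and Ube2v2 were lower under both, whereas the calls on Ube2g2 and Ube2j1 were lost under both. The median of all genes was -0.22 as deposited and 0.01 with the median ratio scaling.

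Light was compared with control embryos within each stage. At the 2-cell stage, right after the exposure, 5 of 40 members were called (12.5%, against 10.5% of all genes), 4 higher and 1 lower in light (all genes 5.53% and 4.96%). The median change over the members was -0.35 on the log2 scale, beside 0.00 for all genes tested, with 15 members positive and 25 negative. The oocyte markers did not overlap between the groups at this stage, with a sum of the 7 genes of 2331 to 5119 in control and 650.2 to 2052 in light libraries, and their part in the values of the members was not tested. The values are scaled by a size factor of each library and do not give the amount of RNA in a cell.

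Ube2c was the member whose groups did not overlap at the 2-cell stage (all genes 4.15%). The 7 control libraries had 74.5, 249 and 278 (lowest, median and highest) and the 6 light libraries 330.3, 389 and 531, so every light library was above every control library. The log2 fold change was 1.08 (SE 0.31, adjusted p = 0.0213, limma), and the call, close to the limit of 2-fold, was lost in edgeR and without control 9 or light 14. Ube2s, its partner on the complex, had means of 179 and 284 and an adjusted p of 0.16 in limma.

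Ube2n and Ube2v2 encode partners in a heterodimer that makes signalling chains, Ube2v2 being a variant without the catalytic cysteine. Ube2n had 82.8, 121 and 224 in control and 202, 287 and 412 in light 2-cell libraries, where 1 control library (12) reached above the lowest light libraries. It was higher in light by 1.15 on the log2 scale (SE 0.32, adjusted p = 0.0171, limma) and was called under all 4 other settings and without each library in turn. Ube2nl, a processed copy of Ube2n, was at most 5.67 in any 2-cell library, though reads of the copies may be shared. Ube2v2 had 0.690, 13.9 and 38.6 in control and 36.9, 52.1 and 72.1 in light libraries, where only control 24 reached into the light range. Its log2 fold change of 2.21 (SE 0.63, adjusted p = 0.0211, limma) was lost in edgeR, with adjusted p = 0.0547, and without light 14. The sister variant Ube2v1 was low, at means of 3.83 and 2.09.

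Ube2j2, an E2 anchored in the endoplasmic reticulum membrane, had 19.8, 126 and 228 in control and 219, 319 and 436 in light 2-cell libraries. Its groups overlapped only through control 12 and light 15, and it was higher in light by 1.60 (SE 0.42, adjusted p = 0.0113, limma), a call kept under all 4 other settings and without each library in turn. The other E2 enzymes of the reticulum were not called: Ube2j1 had means of 35.2 and 19.3 (adjusted p = 0.314, limma) and Ube2g2 of 55.6 and 89.5 (adjusted p = 0.258). Ube3c was the member called lower, with 81.7, 187 and 245 in control and 57.0, 86.1 and 105 in light libraries, a fall by 1.06 on the log2 scale (SE 0.34, adjusted p = 0.0397, limma). All but 1 control library (8) lay above the light range, yet the call was lost when any 1 of 9 of the 13 libraries was left out.

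Ube4b and Ube2d2a also had an adjusted p under 0.05 at the 2-cell stage, with a fold change under 2. The light to control log2 values were -0.71 for Ube4b (adjusted p = 0.0405, limma) and -0.74 for Ube2d2a (adjusted p = 0.0466). At this stage edgeR called 6 members, 2 higher and 4 lower, with 3 in common with limma. Over all genes edgeR called 1052 higher and 1106 lower, beside 1024 and 920 in limma. The RAD6 enzymes were not called: Ube2a had means of 146 and 80.7 (adjusted p = 0.142, limma) and Ube2b of 123 and 172 (adjusted p = 0.433). Ube2t, the E2 of the Fanconi anaemia pathway, had 78.2 and 131 (adjusted p = 0.197, limma). The NEDD8 enzymes Ube2m and Ube2f were low or scattered, with means of 4.05 and 0.491 for Ube2m and of 17.0 and 20.4 for Ube2f. Without the shallow light library 16, 5 members were called as before.

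**Figure D4:**
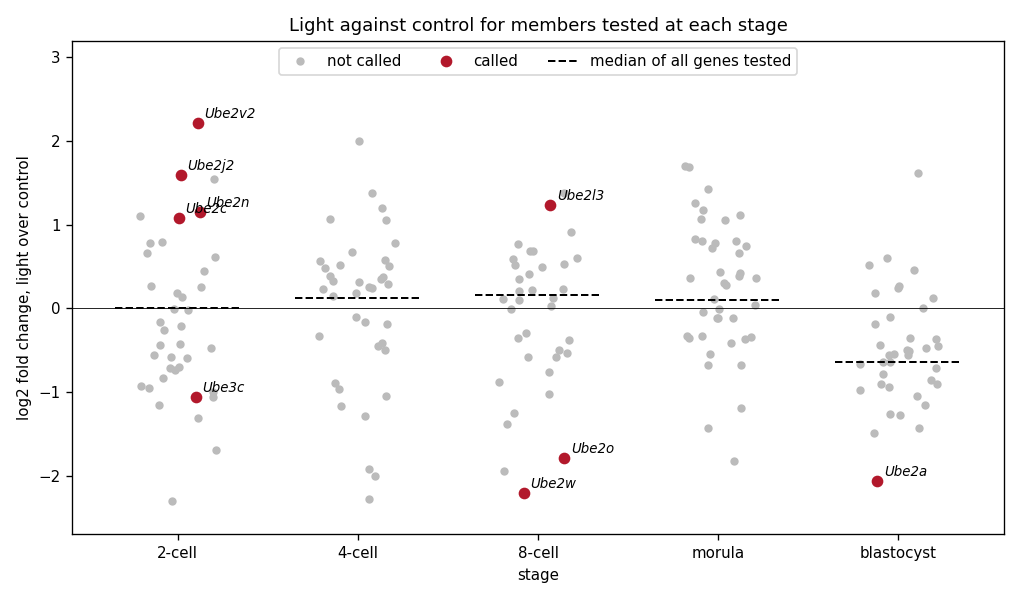
Log2 fold change of light over control (vertical axis) for the members drawn in the heat map that were tested at the 5 stages, with members called in red and named and the median of all genes tested as a dashed line. Ube2v2, Ube2j2, Ube2n and Ube2c stand above the line and Ube3c below it at the 2-cell stage, and the dashed line is at -0.64 in blastocysts.

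At the 4-cell stage 0 of 39 members were called in limma (all genes 1.45%), 7 had an unadjusted p under 0.05, and edgeR called 0. Ube2g1 had the smallest p, with 0.655, 24.8 and 113 in control and 35.3, 74.5 and 106 in light libraries (log2 fold change 1.99, adjusted p = 0.11, limma). The top of the control range is control 3, and 5 of the 6 control libraries were at 37.5 or below. Ube2j2 had 26.4, 116 and 363 and 170.1, 260.2 and 296 (log2 fold change 1.37, adjusted p = 0.119). Without control 4-cell 3, a library that correlated better with the light group, both were called higher in light, by 2.54 (adjusted p = 0.0174, limma) and 1.65 (adjusted p = 0.0412) on the log2 scale, and 771 genes were called in all instead of 218. Of the other members called at the 2-cell stage, Ube2c had means here of 636 and 614 (control and light), Ube2n of 94.1 and 98.3 and Ube2v2 of 54.9 and 55.2. Ube3c, lower in light at the 2-cell stage, had means of 62.9 and 32.4 at the 4-cell stage (log2 fold change -1.17, adjusted p = 0.232, limma).

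At the 8-cell stage 3 of 37 members were called (all genes 9.21%), 1 higher (all genes 5.91%) and 2 lower (all genes 3.3%) in light, and 2 had groups that did not overlap (all genes 5.61%). The median of all genes was 0.16 as deposited and 0.02 with the median ratio scaling. Ube2l3 had 66.6, 137, 63.8 and 95.1 in the 4 control libraries and 157, 219 and 268 (lowest, median and highest) in the 8 light libraries. Every light library was above every control library, and the log2 fold change of 1.24 (SE 0.28, adjusted p = 0.00545, limma) was called under all 4 other settings and without each library in turn. Control Ube2l3 had means of 320.3 in 4-cell and 90.7 in 8-cell embryos (adjusted p = 0.0697, limma), and light Ube2l3 had means of 219 and 209.

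Ube2o, a large enzyme that acts as both E2 and E3 and is best known from red blood cell precursors, had 89.8, 226, 90.5 and 112 in control and 13.3, 29.0 and 71.7 in light 8-cell libraries. All light libraries were below all control libraries, and it fell by 1.79 on the log2 scale (SE 0.45, adjusted p = 0.0121, limma). The call was lost without control 2, the highest library. Ube2w had 31.5, 102, 55.7 and 17.1 in control and 1.49, 7.19 and 32.9 in light libraries, with light 8 inside the control range, and was lower by 2.20 (SE 0.67, adjusted p = 0.0375, limma). It was no longer called with a pseudocount of 0.1, with no filter on low values and without 8 of the 12 libraries in turn. Ube2c had means of 176 and 329, a log2 fold change of 0.91 with adjusted p = 0.0231 in limma, under the limit of 2-fold. Ube4b had 186 and 98.9 (adjusted p = 0.0573, limma) and was called lower, by 1.07 on the log2 scale, with the median ratio scaling.

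In morulae 0 of 42 members were called in limma (all genes 1.18%), 0 in edgeR, and 5 had an unadjusted p under 0.05. The largest differences among those 5 were Ube2h, an E2 known to be induced during red blood cell formation, with a log2 fold change of 1.70 (adjusted p = 0.187, limma), Ube2m with -1.82 (adjusted p = 0.205) and Ube2v2 with 1.43 (adjusted p = 0.108). Ube2v2 had 5.60, 32.6 and 74.1 in control and 40.0, 81.6 and 154 in light morulae, and 5 of the 6 light libraries lay above all but 1 of the control morulae. The median of all genes was 0.10 as deposited and 0.21 with the median ratio scaling.

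In blastocysts the values were lower in light for most genes, with a median log2 fold change of -0.64 over all genes tested, which was -0.11 with the median ratio scaling, and of -0.55 over the members. Cell type markers moved with the groups here: the summed values of the 5 inner cell mass markers were 269.7 to 901 in control and 123 to 198 in light libraries, and those of the 5 primitive endoderm markers 279 to 639 and 69.5 to 137, without overlap. The 7 trophectoderm markers summed to 455 to 6121 in control and 2631 to 6796 in light libraries, with overlap, and no marker of these 3 lists was at 0 in all libraries of a group. The inner cell mass and primitive endoderm sums were already 188 to 706 and 295 to 913 in control 2-cell embryos, so they are not particular to blastocysts. The part of these cell types in the lower values of the members and of the pathway genes was not tested. Of 39 members 1 was called, as lower (all genes 5.34%, and 4.98% lower). Ube2a had 157, 145 and 90.5 in the 3 control libraries and 14.0, 26.6 and 94.6 (lowest, median and highest) in the 6 light libraries, of which light 15 lay above control 3. It was lower by 2.06 on the log2 scale (SE 0.53, adjusted p = 0.0257, limma), or by 1.42 relative to the median of all genes. The call was lost with no filter, with the median ratio scaling (adjusted p = 0.0939) and in edgeR, and without control 1, control 2, light 24 or light 26. Without control 2 the calls over all genes went from 680 to 89. The control blastocysts also entered the rise of Ube2a from the morula, so the comparisons share these 3 libraries.

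Ube2h, not called, had 9.47, 36.2 and 12.2 in control and 35.9, 46.8 and 84.1 in light blastocysts, where control 2 reached the lowest light library. Its log2 fold change was 1.61 (SE 0.52, adjusted p = 0.0683, limma), and it was called higher with the median ratio scaling (2.22, adjusted p = 0.00847) and in edgeR (2.16, adjusted p = 0.0266). Ube2v2 was the member whose groups did not overlap (1 of 39, all genes 12.5%), with 37.9, 50.4 and 32.7 in control and 4.42, 22.1 and 31.7 in light blastocysts and an adjusted p of 0.211 in limma. The HECT ligases Ube3a, Ube3b and Ube3c had log2 fold changes of -1.27, -0.94 and -0.91, with adjusted p values of 0.171, 0.183 and 0.282 in limma.

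**Figure D5:**
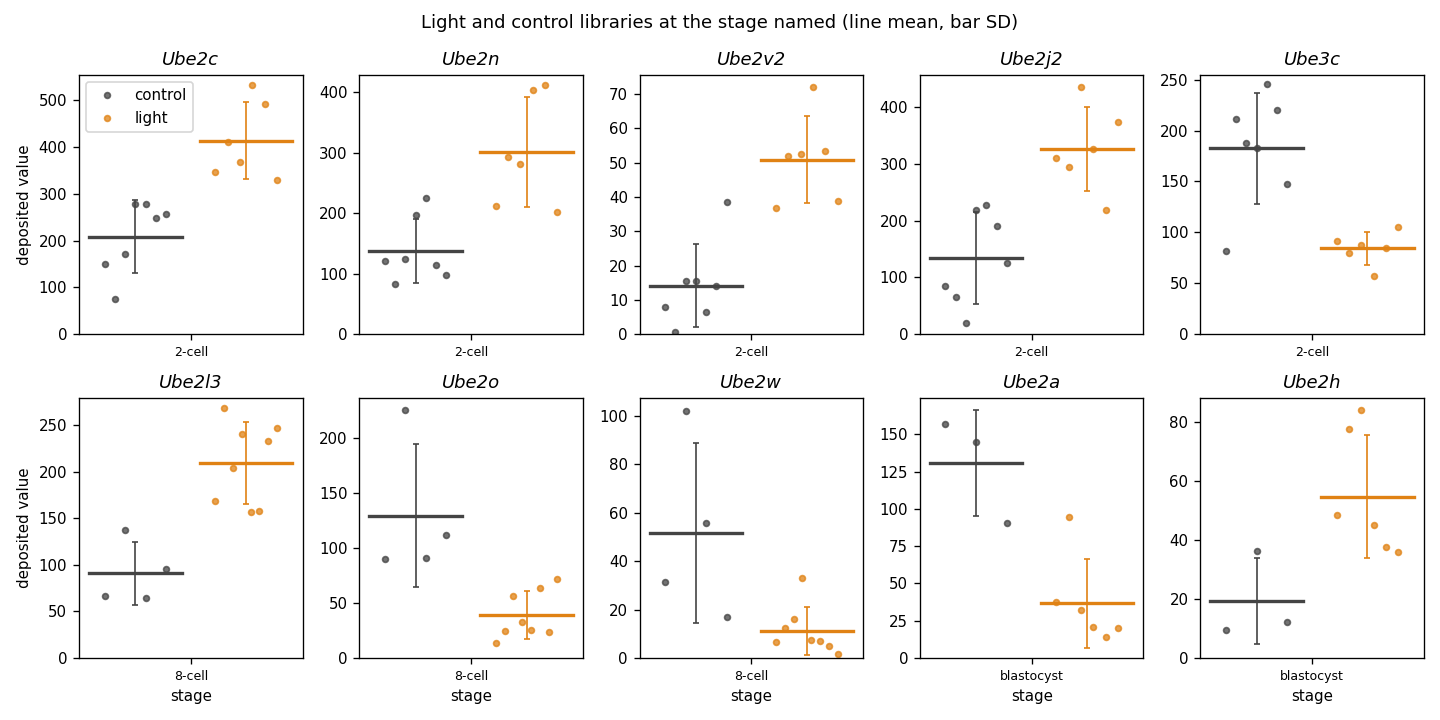
Deposited values per library (points) of the members called between light (orange) and control (grey) embryos, and of Ube2h, at the stage given under each panel, with the mean as a line and the SD as a bar. The points of Ube2c, Ube2l3 and Ube2o do not overlap between groups, and control 2 stands far above the other control libraries for Ube2o.

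Other genes of the pathway were counted by list. At the 2-cell stage, where 5.53% of all genes were called higher and 4.96% lower in light, 4 of 10 E1 genes tested were higher in light and 0 lower, among them Uba2 (log2 fold change 1.71, adjusted p = 0.00132, limma) and Sae1 (2.01, adjusted p = 0.00139), which together form the SUMO E1. Of 17 anaphase-promoting complex genes 3 were higher, including the activator Cdc20 (1.52, adjusted p = 0.0017) and Anapc7 (2.40, adjusted p = 0.00102), and of 11 ubiquitin and ubiquitin-like precursors 2 were higher, Sumo2 (1.95, adjusted p = 0.00138) and Rps27a (1.47, adjusted p = 0.0399), of which the call on Rps27a was lost with no filter and without 7 of the 13 libraries in turn. Of 22 other HECT ligases 2 were lower, Hectd4 (-1.39, adjusted p = 0.00286) and Herc2 (-1.09, adjusted p = 0.00511, not called without light 15). The list medians were 1.12, 0.54, 0.62 and -0.67 on the log2 scale, beside 0.00 for all genes. Higher in light were also 3 of 22 NEDD8 and SUMO partners, and 0 of 11 RAD6 and Ube2n partners and 0 of 5 U-box ligases were called. The Fanconi anaemia list of 13 and the list of 11 ER-associated degradation partners had 1 called in each direction, and among 9 E2 enzymes with other symbols 1 was higher.

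Between the 2-cell and the 4-cell stage 12.3% of all genes rose and 30.4% fell in control embryos, and 7.28% rose and 28.2% fell in light embryos. In control embryos 14 of 22 other HECT ligases fell and 1 rose, with a median of -2.15 beside -0.49 for all genes, and in light embryos 9 fell and 0 rose, with a median of -1.27 beside -0.44. In edgeR 8 fell in control and 4 in light embryos. Hecw1 fell by 4.66 (adjusted p = 1.64e-10, limma) and Trip12 by 2.23 (adjusted p = 4.07e-08) on the log2 scale in control embryos. Of 10 E1 genes 5 rose and 1 fell in control embryos, and of 17 anaphase-promoting complex genes 6 rose and 3 fell, Cdc20 rising by 2.58 (adjusted p = 1.07e-07, limma). In light embryos these lists had 2 higher and 1 lower of 11, and 2 higher and 0 lower of 17 (4 and 1, and 6 and 0, in edgeR). Of 11 precursors 4 rose in control and 2 in light embryos, with Rps27a, which encodes ubiquitin fused to a ribosomal protein, rising by 3.70 (adjusted p = 8.9e-10, limma) and 1.42 (adjusted p = 0.0003). Of 22 NEDD8 and SUMO partners 3 rose and 8 fell in control and 2 rose and 9 fell in light embryos.

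At the 8-cell stage, where 5.91% of all genes were called higher and 3.3% lower in light, 3 of 10 precursors were higher, with Sumo2 by 1.04 (adjusted p = 0.00291, limma). With the median ratio scaling 0 precursors and in edgeR 1 were called, and the call on Sumo2 was lost under both and without control 1 or control 4. Of 22 NEDD8 and SUMO partners 4 were higher and 1 lower (2 and 1 with the median ratio scaling, 1 and 1 in edgeR), and 2 of 17 anaphase-promoting complex genes, 1 of 9 other E2 enzymes and 1 of 11 ER-associated degradation partners (0 under all 4 other settings) were higher. In blastocysts, where 4.98% of all genes were called lower, Uba1, the main ubiquitin E1, was lower in light by 2.21 on the log2 scale (adjusted p = 0.00106, limma), or by 1.58 relative to the median of all genes. This was the 1 call among 9 E1 genes tested, and it was kept with the median ratio scaling (-1.57, adjusted p = 0.0092, limma), in edgeR (-1.59, adjusted p = 0.0127) and without each library in turn. Huwe1 had a log2 fold change of -1.47 (adjusted p = 0.0107, limma), the 1 call among 21 other HECT ligases, which is -0.83 relative to the median of all genes and under 2-fold. The call on Huwe1 was lost with the median ratio scaling (adjusted p = 0.0855, limma), in edgeR (adjusted p = 0.159) and without control 2. The other E2, Fanconi anaemia and NEDD8 and SUMO lists had 1 gene lower each there, and 0 with the median ratio scaling and in edgeR. In morulae 0 genes of these lists were called in limma, and at the 4-cell stage 5 lists had 1 gene called each.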

How the data were processed

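SMART-seq2 libraries of single cells were sequenced, and the submitters' processing notes name HISAT2, HTSeq 0.9.1 and the mm9 genome. The deposited values are a normalized signal that the authors made from read counts: each value times a factor of its library was whole, within 0.01, for at least 99.95% of values, so whole reads were recovered for the edgeR alternative. This differs from the RPKM unit that the methods name.

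Group means and SDs were taken over libraries. Differences were tested with limma 3.58.1 (trend) on log2(value + 1) over all genes with a value above 1 in 3 or more fitted libraries. Calls needed a Benjamini-Hochberg adjusted p under 0.05 and a 2-fold or larger change on the log2(value + 1) scale, which understates changes of low genes. Light and control were fitted within each stage, stage changes over all libraries of a group, and the interaction over 2-cell and 4-cell libraries. Groups came from the labels, and 0 columns belonged to no sample. Alternatives were a pseudocount of 0.1, no filter, median ratio scaling, edgeR 4.0.16 on the recovered reads, a replicate block and each library left out.

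Embryo numbers shared between groups did not pair libraries (correlations of deviations between -0.087 and 0.069), and no libraries agreed within sampling noise (chi-square per degree of freedom at least 7.39). Exon lengths came from GENCODE M21, used for length alone since it is of another build than the files, and promoters from RefSeq. Scripts were run in R 4.3.3 and Python 3.11.15 and tested on simulated data.

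The members, the lists and the tests were chosen with earlier results of these data known. Named in each comparison are the called members with the largest changes (up to 3 each way) and members of fixed roles (partners of the anaphase-promoting complex, RAD6, Ube2n, NEDD8, Ube2d, reticulum, HECT and U-box enzymes). Pathway genes are examples with the smallest p. The alternatives for these and for the list counts were chosen after seeing the data. Other called members were named after their values were seen. Values of 1 member and of 1 pathway gene are not reported here.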

Additional observations from a re-analysis of the deposited data

Results flagged for a closer look

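Members called between light and control were examined in 17 groups of 4 to 10 libraries. Of these groups, 4 held a library whose gap to the others exceeded Dixon's critical value. That value is passed by chance in about 1 in 20 groups of normally distributed values. The gaps were taken on the deposited values and not on the log scale of the tests, so the 4 groups cannot be set against this rate. Ube2v2 in control 2-cell 24 was 38.6, against a median of 10.9 in the other control 2-cell libraries. Ube2o in control 8-cell 2 was 225.7, against a median of 90.5 in the other 3. Ube2w in light 8-cell 8 was 32.9, against a median of 7.18 in the other light 8-cell libraries. Ube2a in light blastocyst 15 was 94.6, against a median of 20.7 in the other light blastocysts.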

How the results depend on the processing

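The counts of members called at the 4-cell stage and in morulae between light and control (0) and from the 2-cell to the 4-cell stage in control embryos (14 to 19) stayed within 1.5 times of the main count under the pseudocount, filter, scaling and edgeR alternatives. Gene by gene, 0 results changed direction while called. The split of the counts did turn in blastocysts, from 1 lower (Ube2a) to 1 higher (Ube2h) with the median ratio scaling and in edgeR. Between light and control at the 2-cell stage the split went from 4 higher and 1 lower to 2 higher and 4 lower in edgeR. For control 8-cell to morula the split went from 2 higher and 2 lower to 0 higher and 2 lower in edgeR. For light morula to blastocyst it went from 0 higher and 9 lower to 4 higher and 3 lower with the median ratio scaling. With a pseudocount of 0.1 the count went from 4 to 2 for control 8-cell to morula, from 1 to 0 for control morula to blastocyst and from 2 to 1 for light 8-cell to morula. With no filter on low values it was 0 for light against control blastocysts, 2 for control morula to blastocyst and 1 for light 8-cell to morula. With the median ratio scaling it was 1 for control 4-cell to 8-cell, 8 for control 8-cell to morula, 4 for control morula to blastocyst, 0 for light 4-cell to 8-cell, 7 for light 8-cell to morula and 2 for the interaction. In edgeR it was 2 for control 8-cell to morula, 0 for light 4-cell to 8-cell, 3 for light morula to blastocyst and 1 for the interaction. Calls over all genes moved as well. With the median ratio scaling they went from 1331 to 283 for light 4-cell to 8-cell and from 2090 to 3259 for control morula to blastocyst. The cause of these changes was not tested.

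Leaving out each library in turn gave 2 to 7 members between light and control at the 2-cell stage, 0 to 2 at the 4-cell stage, 1 to 5 at the 8-cell stage, 0 in morulae and 0 to 1 in blastocysts. It gave 17 to 20, 0 to 1, 0 to 4 and 0 to 2 for the 4 control stage changes in order, 15 to 19, 2 to 5, 0 to 6 and 6 to 10 for the 4 light ones, and 0 to 1 for the interaction. These ranges are not set against the calls over all genes in the same fits. They do not show that members were less stable than other genes. The lowest count at the 2-cell stage was without light 14 and the highest without light 15. Over all genes, the number called in blastocysts was 680 in limma, 151 in edgeR and 89 without control 2, and at the 4-cell stage 218 in limma and 771 without control 3. Over all genes the split of higher and lower calls was 819 and 457 at the 8-cell stage (632 and 646 with the median ratio scaling), 54 and 125 in morulae (138 and 137) and 45 and 635 in blastocysts (126 and 158).

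In a fit with a replicate block for embryo numbers, only libraries with a shared number inform the comparison. With it 0 members were called between light and control at the 2-cell stage. The count was also 0 for control 8-cell to morula, control morula to blastocyst and light 2-cell to 4-cell. In each of these comparisons 0 of all genes were called too, so the counts are not particular to the members. There was 1 member called each for light 4-cell to 8-cell (161 genes in all) and light 8-cell to morula (315 genes in all). The numbers did not pair libraries, and 8-cell embryos and blastocysts share none between groups. A value of 3 reads reached 11.7 in the shallowest library, so differences between members at a few reads could be missed at this depth, although some low members were called.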
